A study of Mus musculus with 6 samples.

Results

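PD-L1, encoded by Cd274, and 9 related genes of T-cell costimulation and inhibition were examined on arrays of splenic CD11b-sorted cells from mice given rapamycin or PBS. The 10 genes were chosen by name, with earlier results of these data known: Cd274, Pdcd1lg2, Cd80, Cd86, Cd276, Icosl, Lgals9, Havcr2, Pvr and Cd83. They are 10 of the 19938 genes that the array measured with a probe set naming 1 gene, and 11 of its 35556 probe sets belong to them. For Cd80, which has more than 1 probe set, the brighter one on average was used. All 10 lay above the brightness threshold (a mean log2 value of 4.72, the 30th percentile of named probe sets), which was set on the mean over both groups. Havcr2 encodes a receptor and Cd83 a surface glycoprotein of activated cells, while the others encode ligands, so the name checkpoint ligands covers the set loosely.

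T cells read a peptide on MHC together with further signals from the presenting cell. CD80 and CD86 give such a signal through CD28 and are captured by the inhibitory receptor CTLA-4, and PD-L1 and PD-L2 engage PD-1, which dampens signalling from the antigen receptor. Myeloid-derived suppressor cells (MDSCs) are immature myeloid cells that restrain T cells, and PD-L1 on their surface is known as one of their tools. After allogeneic bone marrow transplantation the restraint of donor T cells bears on graft-versus-host disease.

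The recipients were B6D2F1/J mice, irradiated at a lethal dose and given B6 marrow without T cells. The labels do not say which mice also received B6 spleen cells with the graft, and they give no measure of the host cells that were left. Rapamycin, which inhibits the kinase complex mTORC1, was injected at 1.5 mg/kg on alternate days in 3 mice, and PBS in the other 3. Spleen cells were taken on day 10 and sorted with CD11b beads, and each mouse gave 1 array. The sort marker Itgam (CD11b) stood at 12.39 ± 0.08 with PBS and 12.27 ± 0.04 with rapamycin (log2 value, mean ± SD, n = 3 each), a difference of -0.12 ± 0.06 (SE) that did not pass the test (adjusted p 0.221). The deposited values are log2 expression values, and a level of one gene cannot be set against that of another, because each probe set has its own response. The arrays' medians lay between 5.42 and 5.46, and the number of arrays, 3 a group, bounds how precise a value can be.

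Of the 10 genes, Cd274 and Cd83 rose with rapamycin, by 1.29-fold and 1.15-fold, and 0 fell. The other 8 did not pass the test (limma, adjusted p under 0.05 over 13965 genes). The share of calls among all genes tested was 11.3%, with 4.42% of genes called higher and 6.92% lower, so 2 of 10 is read against a background of frequent small changes. The log2 difference was above 0 for 9 of the 10, against 44.4% of all genes tested. Its median was 0.184 for the 10 and -0.017 for all genes tested. Because the 10 were chosen with earlier results of these data known, neither comparison is a test. Of the 9, Lgals9 and Pvr lay near 0 and changed sign under some other settings of the analysis. The rapamycin arrays lay wholly above the PBS arrays for Cd274, Cd86 and Cd83 and wholly below them for Cd276, and the groups overlapped for 6. Groups that did not overlap made up 32.0% of all genes tested.

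**Figure D1:**
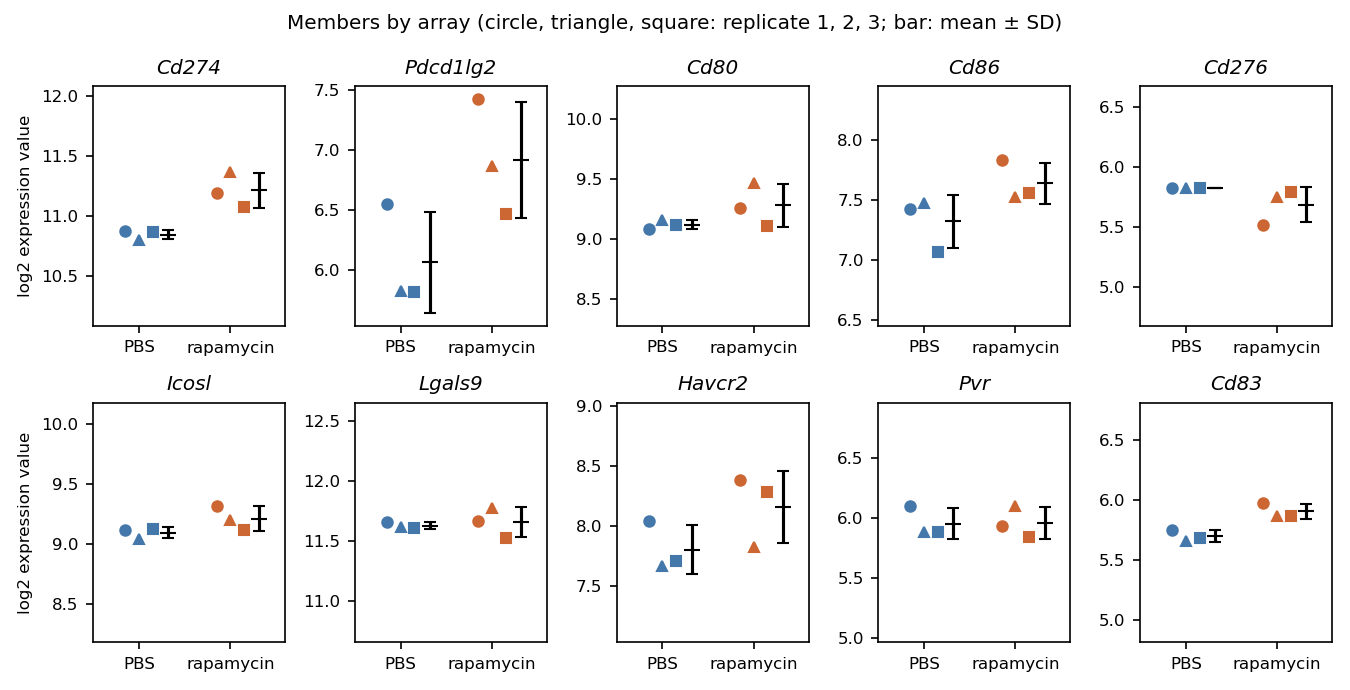
Log2 expression value (y axis, 2 log2 units in every panel) of the 10 genes on each array by group (x axis); symbols mark replicates 1 to 3, and the bar beside them is the mean ± SD of 3 mice. The 3 rapamycin values of Cd274 sit between 11.08 and 11.37 and its PBS values between 10.80 and 10.87, while Pdcd1lg2 shows the widest spread within each group.

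The ligands of PD-1 come first. Cd274 and Pdcd1lg2 are neighbours on chromosome 19, with 1 annotated gene (Gm36043) starting between them in the RefSeq annotation of GRCm38.p6. The 250 bases before the annotated start of each are shown because these neighbours bind the same receptor. They lie at chr19:29367188-29367437 and chr19:29410669-29410918, both on the plus strand, and are given 5′ to 3′ from RefSeq.
Cd274: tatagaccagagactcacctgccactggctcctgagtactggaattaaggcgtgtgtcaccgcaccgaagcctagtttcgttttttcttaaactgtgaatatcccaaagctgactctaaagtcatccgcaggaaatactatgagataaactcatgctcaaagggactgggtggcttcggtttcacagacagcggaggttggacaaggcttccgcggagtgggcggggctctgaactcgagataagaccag
Pdcd1lg2: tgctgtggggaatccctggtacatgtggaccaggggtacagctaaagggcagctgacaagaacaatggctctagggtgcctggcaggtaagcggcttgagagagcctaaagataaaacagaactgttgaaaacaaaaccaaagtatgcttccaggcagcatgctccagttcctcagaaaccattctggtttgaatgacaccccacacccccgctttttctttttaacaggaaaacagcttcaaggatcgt
Neither stretch held any of 6 motifs searched on both strands, and so neither carries capitals. These were the STAT site TTCNNNGAA, present in 7.02% of 32851 such stretches of all genes, an interferon regulatory motif (2.98%), a kappa B motif (0.356%), the E-box CACGTG (6.02%), the hypoxia motif ACGTG, which lies within the E-box (16.6%), and the AP-1 site TGANTCA (6.75%). A missing match says only that these letters are not in the window.

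Cd274 (probe set 10462390) stood at 10.87, 10.80 and 10.87 on the 3 PBS arrays and at 11.20, 11.37 and 11.08 on the 3 rapamycin arrays (log2 values, replicates 1 to 3). Every rapamycin array was above every PBS array, and the PBS arrays lay close together. The means were 10.85 ± 0.04 and 11.21 ± 0.15 (SD, n = 3 each). The log2 difference was 0.37 ± 0.08 (SE), with a 95% interval from 0.19 to 0.55, which is 1.29-fold (1.14 to 1.46), and limma's adjusted p was 0.0272. The call was lost when any 1 PBS mouse was left out (adjusted p 0.0771, 0.111 and 0.0835 for the PBS mice in order) or the first rapamycin mouse (0.0984), in fits with fewer samples. The difference stayed between 0.29 and 0.44 with any 1 array left out. After a repeated quantile normalization it was 0.28 with an adjusted p of 0.0719, and an unmoderated linear model gave an adjusted p of 0.133.

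Pdcd1lg2 (probe set 10462398), which encodes PD-L2, the other ligand of PD-1, stood at 6.55, 5.83 and 5.81 with PBS and at 7.43, 6.86 and 6.47 with rapamycin (log2 values). The third rapamycin array lay under the first PBS array, so the groups overlapped, and replicate 1 was the highest of each group. Rapamycin minus PBS came to 0.86 ± 0.28 (SE) on the log2 scale, the largest of the 10 genes, with a 95% interval from 0.21 to 1.51. It did not pass the test (adjusted p 0.0924), and its SD within groups, 0.42 and 0.48, was larger than that of Cd274. Leaving out the first rapamycin mouse gave 0.60 (adjusted p 0.250), and leaving out the first PBS mouse gave 1.10 (0.0788).

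Whether the PD-1 ligands differed by unlike amounts was tested on the difference between their log2 values within each array. That quantity was lower with rapamycin by a mean of 0.49 (coded Cd274 minus Pdcd1lg2, a value of -0.49), with overlapping groups (exact permutation test, 2-sided, p = 0.3, where 3 against 3 arrays cannot go below 0.1). The means of that quantity were 4.78 ± 0.40 with PBS and 4.30 ± 0.46 with rapamycin (SD, n = 3 each), and the shift ran from -0.72 to -0.22 with 1 mouse left out in turn, smallest without the first rapamycin mouse. This test could not have passed 0.05 at any size of difference, so it does not settle whether Cd274 and Pdcd1lg2 changed unequally.

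Cd80 and Cd86 encode the ligands of CD28 and CTLA-4. Cd80 (probe set 10435704) stood at 9.08, 9.16 and 9.11 with PBS and at 9.26, 9.47 and 9.11 with rapamycin (log2 values). The third rapamycin array was within the PBS range and the second was the highest of the 6. The log2 difference of 0.16 ± 0.09 (SE) did not pass the test (adjusted p 0.280), and its 95% interval ran from -0.05 to 0.37. It was 0.065 with the second rapamycin mouse left out (adjusted p 0.545) and 0.24 with the third (0.0964). The other probe set of Cd80, 10435712, gave 0.05 ± 0.06 in a fit of every named probe set (adjusted p 0.631).

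Cd86 stood at 7.43, 7.48 and 7.07 with PBS and at 7.83, 7.53 and 7.56 with rapamycin (log2 values). The groups did not overlap, but the gap between the second PBS array and the second rapamycin array was small beside the spread within each group. For Cd86 the log2 difference was 0.32 ± 0.13 (SE), with a 95% interval from 0.02 to 0.61 before adjustment, and an adjusted p of 0.151. With the third PBS mouse, the lowest of the 6, left out, the difference was 0.19 (adjusted p 0.325). Between Cd80 and Cd86 the difference within arrays changed by -0.16 (Cd80 minus Cd86; exact permutation test, 2-sided, p = 0.5, smallest possible 0.1). That change was -0.03 with the third PBS mouse left out, -0.05 with the first rapamycin mouse left out and -0.31 with the second.

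Icosl, whose product engages the costimulatory receptor ICOS, stood at 9.12, 9.04 and 9.13 with PBS and at 9.32, 9.20 and 9.12 with rapamycin (log2 values). The lowest rapamycin array lay among the PBS arrays. Icosl differed by 0.12 ± 0.06 on the log2 scale (SE), with a 95% interval from -0.03 to 0.26 (adjusted p 0.268), and by 0.06 with the first rapamycin mouse, its highest, left out (0.542). Cd276 encodes B7-H3, a B7 protein whose receptor is not settled. Its deposited value was the same to every decimal on the 3 PBS arrays, 5.82, and 5.52, 5.75 and 5.79 with rapamycin, all lower. The log2 difference of -0.14 ± 0.07 (SE) did not pass the test (adjusted p 0.272), and because the PBS arrays show no spread at all, that group gives no measure of the variation between mice. With the first rapamycin mouse, the lowest of the 6, left out the Cd276 difference was -0.05 (adjusted p 0.511). The same value on all 3 PBS arrays occurred in 1.54% of genes tested.

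Pvr encodes CD155, which binds the inhibitory receptor TIGIT and the activating receptor CD226. It stood at 6.10, 5.88 and 5.88 with PBS and at 5.93, 6.10 and 5.84 with rapamycin (log2 values), with the groups spread over the same range. The log2 difference was 0.0042 ± 0.087 (SE), with a 95% interval from -0.20 to 0.21 (adjusted p 0.984), so a change of more than 1.16-fold up lay outside the interval. Cd276, Pvr and Cd83 had means near the 50th percentile of named probe sets (5.71), and no detection calls were used here, so how much of their value is background is not known.

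Galectin 9 (Lgals9) and TIM-3 (Havcr2) are a reported ligand and receptor pair, and both are made by myeloid cells as well as T cells. Lgals9 stood at 11.66, 11.62 and 11.61 with PBS and at 11.67, 11.77 and 11.52 with rapamycin (log2 values), and the rapamycin arrays fell on either side of the PBS arrays. Between the groups it differed by 0.03 ± 0.07 (SE, log2), with a 95% interval from -0.13 to 0.19 (adjusted p 0.819), and it turned to -0.07 after a repeated quantile normalization. Havcr2 stood at 8.04, 7.66 and 7.70 with PBS and at 8.38, 7.82 and 8.28 with rapamycin. The second rapamycin array lay under the first PBS array, and the log2 difference of 0.36 ± 0.16 (SE) did not pass the test (adjusted p 0.193; 95% interval from -0.02 to 0.74). With 1 mouse left out in turn it ran from 0.25 without the first rapamycin mouse (adjusted p 0.450) to 0.53 without the second (0.0622).

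The 250 bases before the start of Lgals9 are shown because they were the only ones among the 7 members with an entry in the promoter table to hold the interferon regulatory motif. They lie at chr11:78984925-78985174 on the minus strand of GRCm38.p6 and come from RefSeq, with the match, on the reverse strand of the sequence as printed, in capitals.
Lgals9: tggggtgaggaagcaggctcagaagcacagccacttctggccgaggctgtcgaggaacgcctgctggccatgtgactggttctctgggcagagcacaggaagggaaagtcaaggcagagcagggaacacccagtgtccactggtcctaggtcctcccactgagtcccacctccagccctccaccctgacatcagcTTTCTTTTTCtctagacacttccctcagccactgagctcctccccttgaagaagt
The gene with this match was among the members whose values differed least between the groups. A match of letters is a description and not a binding site.

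Cd83 (probe set 10404840) encodes a surface protein of activated dendritic and B cells that keeps MHC class II and CD86 on the surface by opposing the ubiquitin ligase MARCH1. It stood at 5.76, 5.66 and 5.69 with PBS and at 5.98, 5.87 and 5.87 with rapamycin (log2 values). Every rapamycin array was above every PBS array, on a low level. The log2 difference was 0.21 ± 0.05 (SE), 1.15-fold, with a 95% interval from 0.09 to 0.33 and limma's adjusted p of 0.0460. With any 1 mouse left out Cd83 was not called, at adjusted p-values of 0.0699, 0.145 and 0.123 for the PBS mice in order and 0.128, 0.0813 and 0.0644 for the rapamycin mice. It was also lost without the brightness filter (0.0552), with the array medians aligned (0.0629), with an intensity trend and robust estimation (0.0519), after a repeated quantile normalization (0.0609) and in an unmoderated linear model (0.124).

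**Figure D2:**
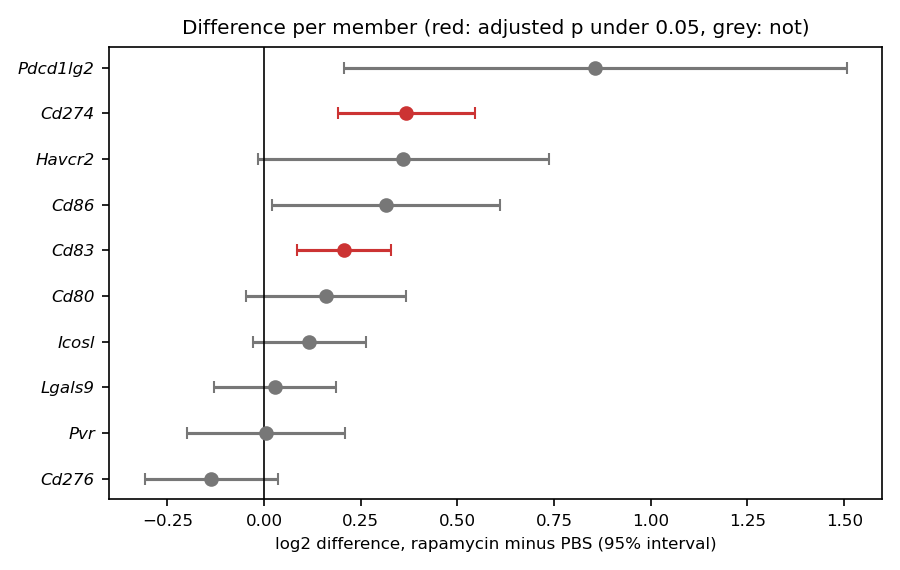
Log2 difference, rapamycin minus PBS, of each of the 10 genes (points) with limma's 95% interval (bars), ordered by size; red marks an adjusted p under 0.05. Cd274 and Cd83 are red, and Pdcd1lg2 has the largest difference, 0.86, with the widest interval.

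The mice of a group did not keep 1 order over the genes, but some arrays stood out. Among the 9 genes without tied values in the rapamycin group, rapamycin replicate 3 was the lowest of its group for 6, and replicates 1 and 2 were the highest for 4 each. In the PBS group, replicate 1 was the highest for 5 of the 8 genes without ties. Limma's array weights, estimated over all genes tested, were lowest for rapamycin replicate 3 (0.73) and highest for PBS replicate 2 (1.62). Among the other 13955 genes tested, those whose values over the 6 arrays followed Cd274 most closely were Tmem129 (Pearson's r 0.9956), the respiratory complex I subunit Ndufa3 (0.9934), the calpain subunit Capns2 (0.9927), C1rl (0.9910) and Prr14l (0.9908). These r values describe 6 arrays that share the difference between the groups. Of the 5 genes, Ndufa3 rose by 0.29 ± 0.06 (SE; adjusted p 0.0312), Capns2 by 0.52 ± 0.11 (0.0308) and Prr14l by 0.24 ± 0.05 (0.0302). With the second PBS mouse left out their adjusted p was 0.113, 0.117 and 0.103, and with the first PBS mouse, the third PBS mouse or the first rapamycin mouse left out none of the 3 was called either (between 0.0720 and 0.115). Ndufa3 and Prr14l were also lost without the second rapamycin mouse (0.0548 and 0.0634).

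Genes that sit around the 10 in the same pathways were read from 7 lists. Over these lists 72 genes were tested, of which 6 rose and 4 fell, and the remaining 62 were not called, a share of 13.9% against 11.3% of all genes. The split moved with the scaling, to 8 higher and 9 lower after a repeated quantile normalization, 6 and 8 with the array medians aligned, and 12 and 3 with medians over tested genes aligned. Their median log2 difference was 0.011. In place of 10 calls there were 8 with the first PBS mouse left out, 0 with the second and 2 with the third, and 3, 4 and 14 with the rapamycin mice left out in the same order.

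A list of genes on the interferon gamma and cytokine route to Cd274 held inhibitors of that signalling, such as Socs1, beside its carriers. Of 18 tested 5 rose and 1 fell, where 4.42% of all genes tested rose and 6.92% fell. The median log2 difference was 0.02, and the count gives no direction of the route as a whole. Irf2, an interferon regulatory factor, stood at 9.55, 9.68 and 9.63 with PBS and at 10.06, 10.11 and 9.95 with rapamycin (log2 values), with no overlap. Its log2 difference was 0.42 ± 0.06 (SE; adjusted p 0.00920). Il4ra, the receptor chain for IL-4 and IL-13, rose by 0.45 ± 0.06 (adjusted p 0.00855), and the growth-promoting transcription factor Myc by 0.71 ± 0.13 (0.0209).

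Irf1, the factor known to carry the interferon signal to the Cd274 promoter, rose by 0.35 ± 0.08 (SE) on its brighter probe set (adjusted p 0.0351), and the mean of its probe sets gave -0.08. Socs1, the feedback inhibitor of JAK kinases, rose by 0.49 ± 0.12 (adjusted p 0.0448), and Jak1 changed by -0.23 ± 0.05 (0.0386). These 2 are named because they complete the count, after their values were seen. The kinase Jak2 differed by 0.20 ± 0.06 (adjusted p 0.0824) and the receptor chain Ifngr2 by 0.18 ± 0.05 (0.0700), and neither passed the test. The 6 calls in this list were 3 with the first PBS mouse left out, 0 with the second and 2 with the third, and 2, 2 and 7 with the rapamycin mice left out in the same order.

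A list of further ligands held B7, butyrophilin and nectin proteins beside galectins, Cd47, Hmgb1, Ceacam1 and Tnfrsf14. None of the 12 tested passed the test with limma, while 5 had an unadjusted p under 0.05 (28.2% of all genes tested did). Their median was -0.063. Vsir, which encodes the inhibitory protein VISTA, stood at 11.20, 11.32 and 11.34 with PBS and at 11.12, 11.12 and 11.06 with rapamycin (log2 values). Every rapamycin array was lower, and the log2 difference of -0.19 ± 0.05 (SE) had an adjusted p of 0.0636. Tnfrsf14, the HVEM receptor that engages BTLA, differed by 0.34 ± 0.10 (0.0773), Lgals1 by -0.15 ± 0.05 (0.106) and Cd47, a signal against phagocytosis, by -0.12 ± 0.05 (0.123). Another 6 genes of the list, Vtcn1 and Cd200 among them, lay under the brightness threshold. Of the TNF family ligands and Cd40, 0 of 4 tested were called with limma and 2 had an unadjusted p under 0.05. Cd40, through which helper T cells activate presenting cells, differed by 0.38 ± 0.13 (adjusted p 0.106) with overlapping groups, and by 0.53 with the third rapamycin mouse left out, when it was called (0.0263).

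Of 12 receptors of these ligands on T and NK cells, Ctla4, Cd28, Cd226, Cd96 and Cd160 lay under the brightness threshold. Of the 7 tested Tigit fell and 0 rose, where 6.92% of all genes tested fell and 4.42% rose. Tigit, the receptor of Pvr, stood at 6.08, 6.21 and 6.22 with PBS and at 5.81, 5.90 and 5.89 with rapamycin (log2 values), with no overlap. Its log2 difference was -0.30 ± 0.06 (SE; adjusted p 0.0210). Lag3 differed by -0.27 ± 0.07 (adjusted p 0.0536), the PD-1 gene Pdcd1 by -0.24 ± 0.11 (0.207) and Icos by -0.14 ± 0.07 (0.228), none of them called. Lag3 was called with the third rapamycin mouse left out (0.0237). Lag3 and Pdcd1 were dim, with means of 5.47 and 5.52 with PBS, and how much of their value is background is not known. Pdcd1 was at -0.11 with the third PBS mouse left out, and Icos at -0.075 with the third rapamycin mouse left out. Tigit lost its call when the second or the third PBS mouse was left out (0.0880 and 0.0744), or the first or second rapamycin mouse (0.0812 and 0.0523).

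Among 10 tested receptors of this kind on myeloid cells, Cd244a (2B4), a receptor of the SLAM family, rose and 0 fell, with a median of 0.202. Of all genes tested 4.42% rose and 6.92% fell. Cd244a stood at 8.70, 8.42 and 8.42 with PBS and at 9.20, 9.08 and 9.04 with rapamycin (log2 values), a difference of 0.59 ± 0.09 (SE; adjusted p 0.0107). Timd4, a phosphatidylserine receptor of macrophages, differed by 0.71 ± 0.19 (adjusted p 0.0588), Slamf7 by 0.57 ± 0.16 (0.0639) and the inhibitory receptor Pirb by 0.25 ± 0.07 (0.0555). For these 3 genes too the rapamycin arrays lay wholly above the PBS arrays, as for 12.6% of all genes tested. Timd4 was called with the first rapamycin mouse left out (0.0416), Slamf7 with the first PBS mouse left out (0.0408) and Pirb with the third rapamycin mouse left out (0.0343). Cd244a lost its call when the second or the third PBS mouse (0.0626 and 0.0523) or the first rapamycin mouse (0.0566) was left out.

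Of 14 tested genes that act on the PD-L1 protein, the palmitoyl transferase Zdhhc3 fell by 0.25 ± 0.05 (SE; adjusted p 0.0226) and 13 did not pass the test. Of all genes tested 11.3% were called, 4.42% higher and 6.92% lower. Csnk1a1 differed by -0.17 ± 0.05 (adjusted p 0.0615), Hip1r by -0.16 ± 0.06 (0.115) and Stt3a by -0.10 ± 0.04 (0.149). For each of these the rapamycin arrays lay wholly below the PBS arrays, as for 19.4% of all genes tested. Cmtm6, which protects PD-L1 from lysosomal breakdown, differed by -0.16 ± 0.08 (adjusted p 0.214), with overlapping groups. Of 7 tested genes tied to Cd83 or to ligand shedding, Marchf8, a ubiquitin ligase that lowers CD86 and MHC class II at the surface, fell by 0.31 ± 0.06 (0.0275) and 6 did not pass. Among those 6, Marchf1, the gene of MARCH1, went the other way, by 0.11 ± 0.05 (adjusted p 0.196). Ifi30 differed by 0.34 ± 0.10 (0.0644), Cd9 by -0.37 ± 0.10 (0.0541) and Cyth1 by -0.14 ± 0.06 (0.175). The list's median was -0.103. Zdhhc3 lost its call with the second or the third PBS mouse left out (0.0861 and 0.0719) or the first or second rapamycin mouse (0.0794 and 0.0636). Marchf8 lost it with any 1 mouse left out, at values of 0.0633, 0.0693 and 0.0578 for the PBS mice in order and 0.107, 0.0671 and 0.0554 for the rapamycin mice.

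**Figure D3:**
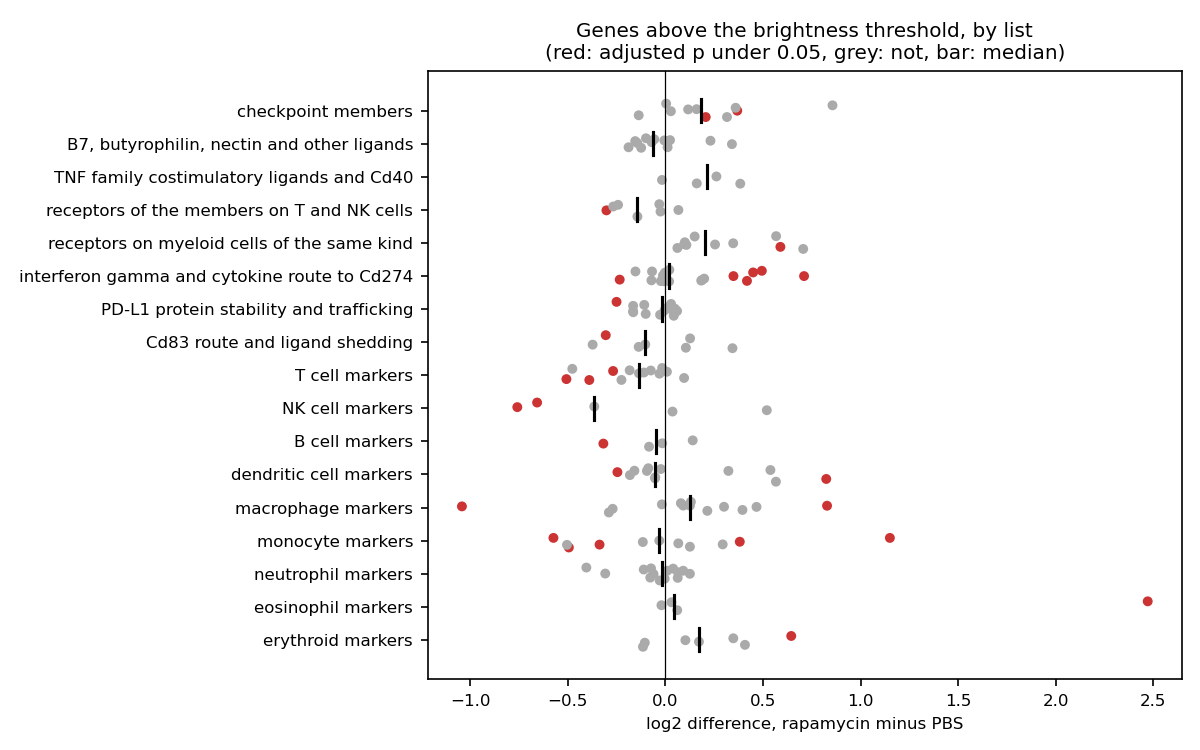
Log2 difference, rapamycin minus PBS (x axis), of every gene above the brightness threshold in the checkpoint genes, 7 pathway lists and 9 cell type lists (rows); red points have an adjusted p under 0.05 and black bars are medians. The checkpoint genes lie mostly right of 0 with a median of 0.184, and the called T and NK cell markers lie left of 0.

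Cells other than MDSCs carry these ligands too, and in sorted bulk RNA fewer cells of a type and less RNA per cell cannot be told apart. Markers of dendritic cells, which carry Pdcd1lg2, Cd80, Cd86 and Cd83, numbered 12 of 14 above the threshold, with Xcr1 and Siglech under it. Their mean log2 level lay between 6.38 and 6.51 with PBS and between 6.49 and 6.65 with rapamycin. The integrin Itgax rose by 0.82 ± 0.18 (SE), Bst2 changed by -0.25 ± 0.05 and 10 did not pass, and the median was -0.052. Of 13 macrophage markers Cd68 rose by 0.83 ± 0.09, Mrc1 changed by -1.04 ± 0.14 and 11 did not pass, with mean levels between 8.38 and 8.80 with PBS and between 8.65 and 8.75 with rapamycin. Of 11 monocyte markers 2 rose and 3 fell, with Cd14 at 1.15 ± 0.10 and Ace at -0.57 ± 0.13, and mean levels between 8.56 and 8.72 with PBS and between 8.60 and 8.65 with rapamycin. Each count in these lists stands beside 4.42% of all genes tested that rose and 6.92% that fell. The part of these markers in the values of Cd274 and Cd83 was not tested.

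Of 14 neutrophil markers, all above the threshold, 0 were called with limma and 1 had an unadjusted p under 0.05. Of all genes tested 11.3% were called and 28.2% had such a p. Mpo differed by -0.40 ± 0.15 (SE; adjusted p 0.125) and Ly6g by -0.31 ± 0.14 (0.202), each with overlapping groups. The neutrophil markers' mean log2 level lay between 12.43 and 12.47 with PBS and between 12.35 and 12.43 with rapamycin. Of the eosinophil markers Alox15 rose by 2.47 ± 0.27 (SE) and the other 3 tested, Ccr3 among them, did not pass, and Epx, Prg2 and Il5ra lay under the threshold. The eosinophil mean level lay between 6.75 and 7.12 with PBS and between 7.19 and 7.79 with rapamycin. That mean covers the 4 tested genes, and its rise came from Alox15. Ccr3 differed by 0.06 ± 0.07, Siglecf by 0.03 ± 0.04 and Ear6 by -0.02 ± 0.41, and the list's median was 0.046. Of 7 erythroid markers Slc4a1 rose by 0.64 ± 0.09 and 6 did not pass, Car2 among them at 0.41 ± 0.12 (adjusted p 0.0653). The erythroid mean level lay between 5.57 and 5.60 with PBS and between 5.72 and 5.88 with rapamycin.

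Some lymphocyte markers fell. Of 13 T cell markers 3 fell and 0 rose, with Ubash3a at -0.51 ± 0.10 (SE) and Cd8a at -0.27 ± 0.06, and their mean log2 level lay between 5.47 and 5.55 with PBS and between 5.27 and 5.38 with rapamycin. The called genes Cd8a and Cd3g were dim, with means of 5.48 and 5.43 with PBS and 5.21 and 5.04 with rapamycin. How much of those values is background is not known. With the brightness filter raised to 5.71, which left Cd8a and Cd3g out, 1 T cell marker was called, Ubash3a (adjusted p 0.0178). Of 5 NK cell markers above the threshold Gzmb changed by -0.76 ± 0.11 and Nkg7 by -0.66 ± 0.12, while 3 did not pass, Klrk1 at 0.52 ± 0.18 (adjusted p 0.107, rapamycin wholly above PBS), Prf1 at -0.36 ± 0.14 (0.144) and Eomes at 0.04 ± 0.04 (0.635). The list's median was -0.364, with mean levels between 6.35 and 6.45 with PBS and between 6.09 and 6.33 with rapamycin. Ncr1, Klrb1c and 4 others were under the threshold. Of 12 B cell markers 8 were under it, Ms4a1, Cd79a and Pax5 among them, and of the 4 tested Cd79b changed by -0.32 ± 0.06. The other 3 did not pass, Blk at 0.14 ± 0.07 (adjusted p 0.257), Cd22 at -0.08 ± 0.08 (0.510) and Ighm at -0.02 ± 0.04 (0.836). The median of these B cell markers was -0.05. The B cell mean level lay between 5.56 and 5.60 with PBS and between 5.46 and 5.57 with rapamycin. Beside the lower Tigit value thus stand 3 of 13 T cell markers and 2 of 5 NK cell markers that fell, with medians of -0.135 and -0.364 and with members on either side of 0 in both lists. Their part in the Tigit value was not tested. Over the 9 cell type lists 82 genes were tested, of which 6 rose and 11 fell, a share of 20.7% against 11.3% of all genes. Against these 17 calls there were 12 with the first PBS mouse left out, 2 with the second and 5 with the third. With the rapamycin mice left out in the same order there were 6, 10 and 14.

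**Figure D4:**
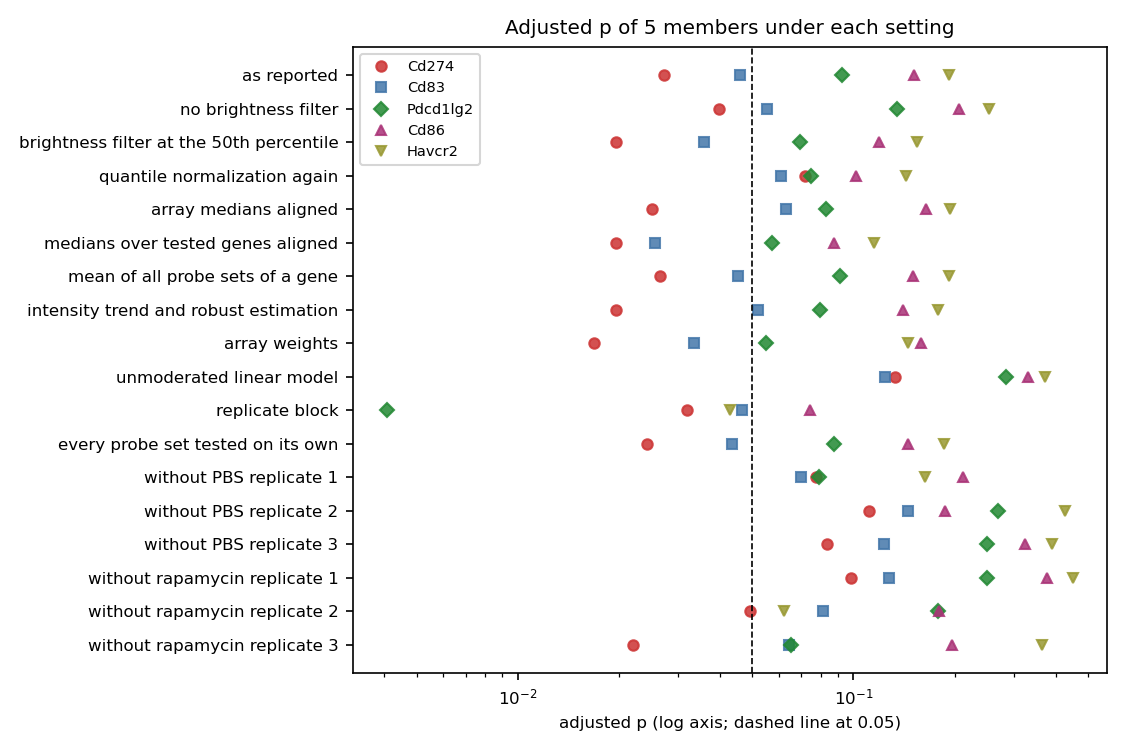
Adjusted p (x axis, log scale, dashed line at 0.05) of the 5 checkpoint genes with the lowest p-values under each setting of the analysis (rows). Cd274 lies left of the line in 11 of 17 alternatives and Cd83 in 6.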

How the data were processed

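Total RNA of CD11b-sorted spleen cells from 6 mice was hybridised to 1 array each. Per the submitters' processing notes the authors made the deposited log2 values with RMA in Affymetrix Expression Console (its version, settings and genome build: not given in the sources used here). The method forces 1 value distribution on all arrays, so it would hide a shift shared by most genes, and its median-based summary can leave equal values on several arrays. GEO's platform annotation gave 21789 of 35556 probe sets 1 symbol. Of 203 pathway and cell type list entries 11 were not analysed here for want of a probe set naming that gene alone.

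Rapamycin was set against PBS in limma 3.58.1 under R 4.3.3 (lmFit, eBayes, 2-sided, Benjamini-Hochberg over 13965 genes above the brightness threshold), calling genes whose adjusted p was under 0.05. SE and 95% intervals are limma's moderated ones. The p-values set the difference between groups against the spread between mice, with each gene's variance drawn towards that of all genes tested. Tested on simulated data for 13965 genes, the fit recovered 27 of 50 genes changed by 0.3 and 49 of 50 changed by 0.6 (log2). Of its 182 calls 6 were false. The simulation drew independent normal noise from limma's moderated variances and changed far fewer genes than the 1584 called in the data. Its rates therefore need not hold for the members. The genes named were all 10 members, up to 4 genes of each pathway list and up to 2 of each cell type list with the largest absolute moderated statistic, and the 5 genes most like Cd274. Other list genes in the text were picked once their values were known. The members and lists were chosen with earlier results of these data known, so the lists carry no test. Alternatives changed the filter, the scaling, the probe sets, the variance model and the samples, and 1 (medians over tested genes aligned) was chosen after seeing the data. The replicate numbers were not used as pairs: correlations of same-numbered arrays' deviations across genes were 0.263, 0.010 and 0.046. No scan dates were used. Figures were drawn with matplotlib 3.10.9.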

Additional observations from a re-analysis of the deposited data

How the results depend on the processing

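The count of 2 called members was 1 without the brightness filter, with the array medians aligned or with an intensity trend and robust estimation, 0 after a repeated quantile normalization or with an unmoderated linear model, 4 with the replicate number as a block, and between 0 and 1 with any 1 array left out. Under the block Pdcd1lg2 (adjusted p 0.00408) and Havcr2 (0.0428) were added to Cd274 (0.0320) and Cd83 (0.0466). The block took the calls over all genes from 617 higher and 967 lower to 768 and 923. The numbers are shared by name only, and not every array correlated best with its own number. The pathway count of 10 was 17 with the stricter filter, the repeated quantile normalization, the intensity trend or array weights, 16 with the replicate block, 0 with the unmoderated model and between 0 and 14 with any 1 array left out. The cell type count of 17 was 0 with the unmoderated model and between 2 and 14 with any 1 array left out. The balance of calls over all genes moved with the scaling: 548 were higher and 1341 lower with medians of all probe sets aligned and 608 and 1342 after the repeated quantile normalization. With medians over tested genes aligned, the alternative chosen after seeing the data, they were 875 and 707. Only that alternative gave more higher than lower calls.

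Signs were followed for the members, the genes named by rule, those most like Cd274 and the called list genes, and changed for 6 of them. Other list genes in the text, Ear6 and Ighm among them, were not followed in this way. Lgals9 turned to -0.0675 and Pvr to -0.0207 after the repeated quantile normalization, Pvr to -0.0194 with medians of all probe sets aligned, and Tnfsf14 to 0.0147 with medians over tested genes aligned. With 1 mouse left out in turn, Lgals9 ran from -0.0312 to 0.0939, Pvr from -0.0665 to 0.0769, Tnfsf14 from -0.0579 to 0.0282 and Ccr3 from -0.0003 to 0.1072. With the mean of all probe sets, Cd47 turned from -0.12 to 0.0057 and Irf1, called at 0.35 on its brighter probe set, to -0.0846. The within-array differences of Cd274 to Pdcd1lg2 and of Cd80 to Cd86 kept their sign under every alternative run. Apart from the fits with fewer samples or genes, the cause of these moves was not tested.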

Other observations

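Exact repeats of a deposited value were frequent, which bears on dim genes such as Cd276, Pvr and Cd83. Of 13965 genes tested, 36.79% had at least 1 value that occurred on more than 1 of the 6 arrays. The 3 PBS arrays shared 1 value for 215 genes and the 3 rapamycin arrays for 252 genes (1.80%). For Cd83 rapamycin replicates 2 and 3 held the same value, 5.87, and for Pvr PBS replicates 2 and 3 did, 5.88. PBS replicate 1 and rapamycin replicate 2 also shared a value for Pvr, 6.10.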
